A study of Mus musculus with 6 samples.

Results

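The genes by which canonical NF-kappaB signalling builds and restrains itself were followed in medullary thymic epithelial cells (mTEC). The 10 genes are Nfkb1, Rel, Nfkbia, Nfkbie, Nfkbiz, Bcl3, Tnfaip3, Tnip1, Birc3 and Traf1, chosen by symbol as subunits of the pathway or as its induced feedback genes, and they are 10 of the 43432 gene IDs in the count table. Libraries came from CopaE241K/+ mice (MUT, 3 libraries) and from Copa+/+ mice (WT, 3 libraries), all C57BL/6 at 4 weeks after birth, and the cells were isolated by a published thymus protocol. Copa codes for coatomer alpha, part of the COPI coat of retrograde vesicles between Golgi and endoplasmic reticulum, and the MUT mice are heterozygous for the E241K substitution. The labels do not say whether a library came from 1 mouse or from a pool. Each p-value therefore rests on spread between libraries, which may in part be technical and which the test estimates partly from other genes.

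NF-kappaB dimers wait in the cytoplasm bound to I-kappaB inhibitors. Signals from TNF, interleukin-1 and Toll-like receptors pass through ubiquitin chains to the IKK kinase, the inhibitor is phosphorylated and destroyed, and the dimer enters the nucleus. Among the first genes it induces are its own inhibitors and the enzymes that trim the ubiquitin signal, so the RNA levels of these feedback genes are widely used as a readout of recent pathway activity. In the thymic medulla, receptors of the TNF family (RANK, CD40 and the lymphotoxin beta receptor) use NF-kappaB to drive the development of mTEC, and STING, named in the title of the series, can signal to NF-kappaB as well as to interferon genes.

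Promoter sequences are shown because NF-kappaB induces its feedback genes through kappaB sites, many of which lie near the start. RefSeq (GRCm38.p6) gave a window of 300 bases, from 250 before to 50 after the start, for 8 of the 10 genes. Nfkb1 and Nfkbiz had no entry, and Tnfaip3 had a second window. Both strands were searched for the 10-base kappaB consensus. It was found for 6 of these 8 genes (Nfkbia, Nfkbie, Rel, Bcl3, Tnfaip3 and Tnip1), against 5.14% of the 27025 genes with a window, and it was not found in the windows of Birc3 and Traf1 or in the second window of Tnfaip3. A match describes these letters only. The whole Nfkbia window lies at chr12:55492598-55492897 on the minus strand, and every sequence here is written 5′ to 3′ on the strand of its gene, with capitals marking a match on either strand. The match of Nfkbia begins at position -29 from the start.
Nfkbia: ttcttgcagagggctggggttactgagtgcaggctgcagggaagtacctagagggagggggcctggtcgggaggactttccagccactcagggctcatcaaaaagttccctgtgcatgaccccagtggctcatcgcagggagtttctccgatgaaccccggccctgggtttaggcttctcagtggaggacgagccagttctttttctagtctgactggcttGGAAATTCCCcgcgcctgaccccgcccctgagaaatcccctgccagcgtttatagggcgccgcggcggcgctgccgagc

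The matches of the other 5 genes are given with 20 bases on either side. They lie at chr17:45555574-45555623 (plus strand) for Nfkbie, chr11:23771031-23771081 (minus) for Rel, chr7:19822724-19822773 (minus) for Bcl3, chr10:19015506-19015555 and chr10:19015393-19015442 (minus) for Tnfaip3, and chr11:54962967-54963018 (minus) for Tnip1. In Rel 2 matches, and in Tnip1 3, followed each other at steps of 1 base, so their capitals run over 11 and 12 bases. The Tnip1 run reads the same on either strand.
Nfkbie: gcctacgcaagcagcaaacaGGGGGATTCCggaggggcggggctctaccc
Rel: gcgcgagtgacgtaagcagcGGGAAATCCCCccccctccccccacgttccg
Bcl3: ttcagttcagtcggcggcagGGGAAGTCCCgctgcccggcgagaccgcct
Tnfaip3, upstream match: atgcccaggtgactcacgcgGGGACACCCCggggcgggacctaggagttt
Tnfaip3, match near the start: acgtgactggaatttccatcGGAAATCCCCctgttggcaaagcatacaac
Tnip1: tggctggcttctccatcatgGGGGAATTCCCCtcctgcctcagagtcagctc

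The libraries held 19934513 to 23366238 counts, and no pair of libraries within a genotype agreed within sampling noise. Copa measured 298 to 377 CPM (counts scaled to library size, with TMM factors) in MUT and 277 to 569 CPM in WT, which does not check a single-residue allele. All 13 usable mTEC markers were counted, and 7 of them had fitted values above 0. Aire measured 929 to 1563 CPM in MUT and 954 to 1379 CPM in WT, and Epcam, the 1 marker with every MUT library below every WT library, 418 to 593 CPM in MUT and 629 to 751 CPM in WT (log2 fold change -0.48, SE 0.28). The 13 mTEC markers summed to 4471 to 4695 CPM in MUT and 3956 to 6615 CPM in WT. In bulk samples, fewer cells of a type and less RNA per cell cannot be told apart.

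No feedback gene passed the test between the genotypes. All 10 were counted well enough to be tested, with at least 408 counts in every library, and in edgeR's quasi-likelihood test over 17172 genes each had an adjusted p of 0.9999. The share of all genes called was 0%, so the count of 0 members says nothing particular about them. Of the members, 0 of 10 had an unadjusted p under 0.05, against 3.48% of all genes. limma-voom called 0% of genes. DESeq2 called 0.621% of the genes to which it gave an adjusted p, edgeR run on unfiltered counts called 0.253%, and neither call set held a member. Fitted log2 fold changes (MUT minus WT) were above 0 for 6 members and below 0 for 4, against 49.4% of all genes above 0. Their median was 0.25 beside -0.01 over all genes tested, and it was -0.02 without MUT replicate 2. Every MUT library lay above every WT library for 2 of the 10, Birc3 and Bcl3, against 5.39% of all genes, and the reverse order was found for 0 of the 10, against 3.96%. The remaining 8 had overlapping genotypes.

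**Figure D1:**
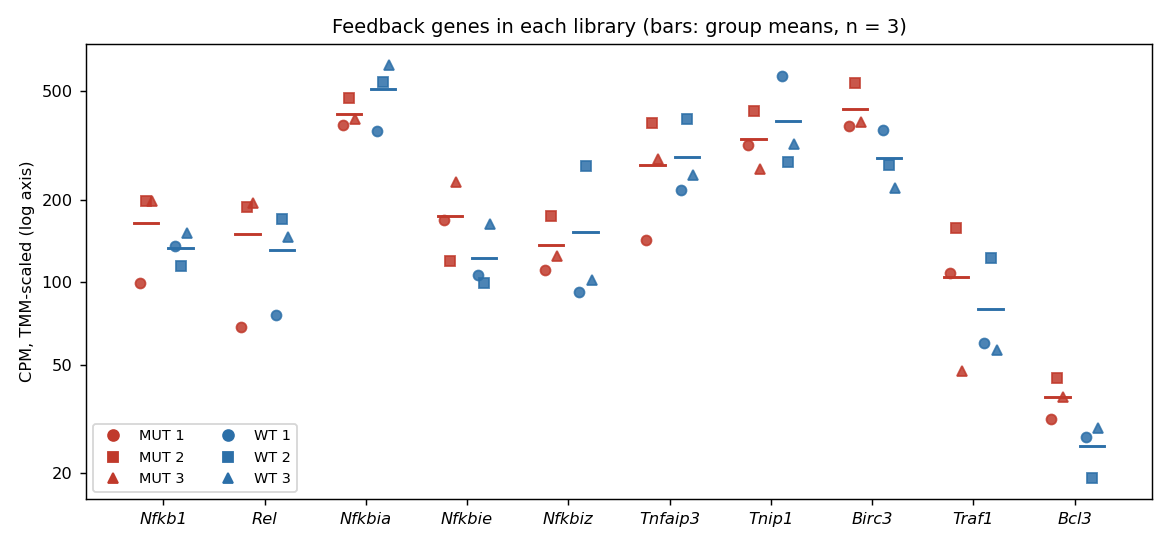
Level of each feedback gene in each library, in TMM-scaled CPM on a log axis; red marks are MUT, blue marks WT, the shape gives the library number and the bar the mean of 3 libraries. The marks of Birc3 and Bcl3 separate by genotype, narrowly for Birc3 (372 CPM in the lowest MUT library, 362 CPM in the highest WT library), and those of the other genes overlap.

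The subunit genes overlapped between genotypes. Nfkb1 (chr3:135584655-135691547, minus strand) encodes a precursor that is processed to a DNA-binding subunit and that can itself hold other subunits in the cytoplasm. It measured 99.9, 199 and 198 CPM in MUT libraries 1, 2 and 3, and 136, 115 and 151 CPM in WT libraries 1, 2 and 3. MUT library 1 was the lowest of the 6 and the other MUT libraries were the highest, so the MUT values enclosed the WT values. The means were 166 ± 56.9 CPM in MUT and 134 ± 18.2 CPM in WT (SD, n = 3 each, as for all means here), a log2 fold change of 0.31 (SE 0.38, 95% interval -0.53 to 1.14). It ranged from 0.14 without MUT replicate 2 to 0.57 without MUT replicate 1.

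Rel encodes c-Rel, a subunit with a transactivation domain that is best known from lymphocytes (chr11:23736847-23770970, minus strand). It measured 68.4, 188 and 195 CPM in MUT libraries 1, 2 and 3, and 76.1, 171 and 146 CPM in WT libraries 1, 2 and 3. The libraries numbered 1 were the lowest in both genotypes. Its log2 fold change was 0.20 (SE 0.47), with a 95% interval of -0.83 to 1.23, and it ran from -0.08 without WT replicate 1 to 0.55 without MUT replicate 1.

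The cytoplasmic inhibitors lay on opposite sides of 0 without passing the test. Nfkbia encodes I-kappaB alpha, the inhibitor that is destroyed and resynthesised fastest, and its gene spans chr12:55489410-55492647 on the minus strand. It measured 376, 473 and 395 CPM in MUT libraries 1, 2 and 3, and 359, 539.9 and 626 CPM in WT libraries 1, 2 and 3. The MUT libraries lay close together, inside the range of the WT libraries. The means were 415 ± 51.6 CPM in MUT and 508 ± 136 CPM in WT, a log2 fold change of -0.29 (SE 0.31). Its 95% interval, -0.96 to 0.38, was the narrowest of the members and corresponds to 0.513-fold to 1.297-fold. With 1 library left out, the value lay between -0.50 (without WT replicate 1) and -0.12 (without WT replicate 3).

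Nfkbie encodes I-kappaB epsilon, an inhibitor that is resynthesised more slowly (chr17:45555703-45563169, plus strand). It measured 169, 119.9 and 234 CPM in MUT libraries 1, 2 and 3, and 106, 99.1 and 164 CPM in WT libraries 1, 2 and 3. MUT library 3 was the highest and WT library 2 the lowest, and the genotypes overlapped because WT library 3 lay above MUT library 2. The log2 fold change was 0.50 (SE 0.39, 95% interval -0.35 to 1.36), with 0.23 without MUT replicate 3 and 0.76 without WT replicate 3.

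The atypical inhibitors act in the nucleus, where they modify the choice of target genes. Nfkbiz encodes I-kappaB zeta, an induced cofactor of late-response genes (chr16:55811375-55838899, minus strand). It measured 111, 175 and 125 CPM in MUT libraries 1, 2 and 3, and 92.4, 266 and 102 CPM in WT libraries 1, 2 and 3. WT library 2 stood above the other 5. The log2 fold change of -0.16 (SE 0.46, 95% interval -1.16 to 0.84) was 0.48 without that library.

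Bcl3 (chr7:19808462-19822770, minus strand) encodes a nuclear partner of the subunits that lack a transactivation domain. It measured 31.7, 44.6 and 38.2 CPM in MUT libraries 1, 2 and 3, and 27.1, 19.2 and 29.4 CPM in WT libraries 1, 2 and 3. It was the lowest of the 10 genes in CPM, and its genotypes did not overlap. The means were 38.2 ± 6.45 CPM in MUT and 25.2 ± 5.33 CPM in WT. The log2 fold change was 0.60 (SE 0.61, 95% interval -0.72 to 1.92, edgeR unadjusted p 0.344), a difference smaller than its SE. That SE is estimated in part from other genes. Within genotypes the SD of log2 CPM of Bcl3 itself was 0.288, the smallest of the members. DESeq2 gave a log2 fold change of 0.58 with an SE of 0.436. With upper-quartile factors, or with library totals alone, the genotypes did overlap. An antisense gene, Gm16175, shares 161 exon bases with Bcl3, or 6.51% of its exon length, and had 0 or 1 count in each library.

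The next genes restrain the ubiquitin signal upstream of IKK. Tnfaip3 encodes a ubiquitin-editing enzyme that shuts off signalling from TNF and Toll-like receptors (chr10:19000910-19015657, minus strand). It measured 143, 383 and 283 CPM in MUT libraries 1, 2 and 3, and 218, 395 and 248 CPM in WT libraries 1, 2 and 3. The libraries numbered 2 were the highest in both genotypes and MUT library 1 was the lowest of all. The log2 fold change was -0.09 (SE 0.40, 95% interval -0.97 to 0.79), with -0.44 without MUT replicate 2 and 0.21 without MUT replicate 1.

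Tnip1 encodes a ubiquitin-binding adaptor that works with the Tnfaip3 protein (chr11:54910785-54962917, minus strand). It measured 318, 425 and 260.1 CPM in MUT libraries 1, 2 and 3, and 567, 277 and 319.9 CPM in WT libraries 1, 2 and 3. WT library 1 was the highest, and without it the log2 fold change of -0.21 (SE 0.36, 95% interval -0.99 to 0.56) became 0.16.

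Birc3 and Traf1 are components of TNF receptor complexes that NF-kappaB also induces. Birc3 encodes a ubiquitin ligase that adds the chains recruiting IKK and protects from cell death (chr9:7848699-7873186, minus strand). It measured 372, 535 and 386 CPM in MUT libraries 1, 2 and 3, and 362, 269.7 and 221 CPM in WT libraries 1, 2 and 3. Every MUT library exceeded every WT library, with MUT library 2 well above the rest. The means were 431 ± 90.2 CPM in MUT and 284 ± 71.3 CPM in WT. Its log2 fold change was 0.60 (SE 0.32, 95% interval -0.10 to 1.298), and its edgeR unadjusted p of 0.0852 was the smallest among the members. The genotypes also stayed apart for Birc3 with DESeq2 size factors, with upper-quartile factors and with library totals alone. Without MUT replicate 2 the log2 fold change was 0.41, and without both libraries numbered 2, an alternative added after seeing the data, it was 0.37. It was 0.81 without WT replicate 1 (edgeR unadjusted p 0.0352) and 0.69 with upper-quartile factors (edgeR unadjusted p 0.0431). Neither passed after adjustment.

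Traf1 encodes an adaptor that sits beside the cIAP ubiquitin ligases in these complexes (chr2:34941750-34961772, minus strand). It measured 108, 159 and 47.5 CPM in MUT libraries 1, 2 and 3, and 60.0, 123 and 56.6 CPM in WT libraries 1, 2 and 3. MUT libraries were both the highest and the lowest. The log2 fold change was 0.39 (SE 0.52, 95% interval -0.75 to 1.53) and became -0.04 without MUT replicate 2.

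**Figure D2:**
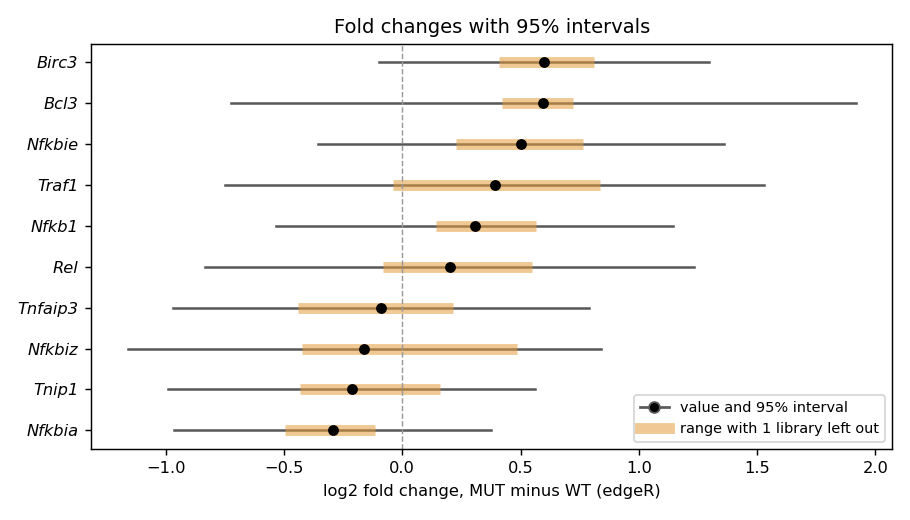
Log2 fold change (MUT minus WT) of each feedback gene from edgeR, with its 95% interval (grey) and the range over the fits that leave out 1 library in turn (orange). Every interval includes 0, and with 1 library left out Birc3, Bcl3, Nfkbie and Nfkb1 stayed above 0 and Nfkbia below it, while the other 5 genes crossed 0.

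Levels were compared between genes as TPM, computed from the counts and the length of the union of annotated exons (GENCODE M21). Nfkbia was the most abundant member at 767 ± 273 TPM (SD over the 6 libraries), above 99.57% of the genes tested. It made up 41.6 ± 1.59% of the summed TPM of the 10 genes in MUT and 48.7 ± 9.37% in WT, where it ranged from 38.6% to 57.0%. Tnip1 followed at 262 ± 60.6 TPM, then Birc3 at 187 ± 61.5, Nfkbie at 139 ± 82.5, Tnfaip3 at 101 ± 35.4 and Nfkbiz at 74.2 ± 27.1 TPM. The lower end held Rel at 51.5 ± 27.7, Bcl3 at 34.6 ± 13.9, Nfkb1 at 33.8 ± 15.4 and Traf1 at 25.9 ± 8.71 TPM, which still lay above 73.1% of the genes tested.

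Nfkbia exceeded Tnip1 in 6 of 6 libraries, by 1.51 ± 0.61 on the log2 TPM scale. The steps from Tnip1 to Birc3, from Tnfaip3 to Nfkbiz and from Nfkbiz to Rel also exceeded the SD of their difference, each in 5 of 6 libraries. Birc3 and Nfkbie, Nfkbie and Tnfaip3, Rel and Bcl3, and Bcl3 and Nfkb1 differed by less than the SD of their difference across libraries, as did Nfkb1 and Traf1. With the length of the longest principal transcript in place of the exon union, an alternative added after seeing the data, Nfkbia stayed first, Birc3 passed Tnip1, and Nfkb1 moved to rank 6 from rank 9.

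In RNA per length, Nfkbia and Nfkbie together outweighed Nfkb1, Rel and Rela in every library. The summed TPM of Nfkbia and Nfkbie was 4.95, 5.93 and 5.06 times that of Nfkb1, Rel and Rela in MUT libraries 1, 2 and 3, and 2.90, 4.57 and 7.71 times in WT libraries 1, 2 and 3. The MUT ratios lay together within the wider range of the WT ratios. Rela, which encodes the main transactivating subunit, is not among the 10 and was added here to complete the common dimers. The ratio leaves out the subunit genes Nfkb2 and Relb (means of 157 and 79.65 TPM) and the inhibitor gene Nfkbib (90.05 TPM). It also depends on the length used, since Nfkb1 averaged 33.8 TPM by exon union and 76.5 TPM by its principal transcript.

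**Figure D3:**
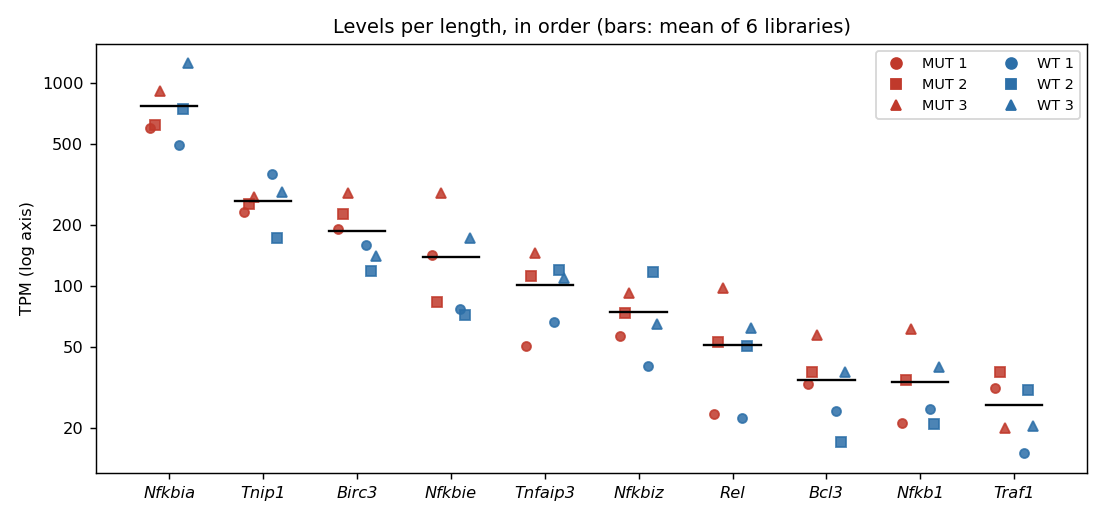
Level per length of each feedback gene in each library, in TPM on a log axis, ordered by the mean of the 6 libraries (black bar); red marks are MUT and blue marks WT. Nfkbia stands alone at the top, and below it the marks of each gene overlap those of the next.

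The 10 genes did not move as a block across libraries. Over the 45 pairs of members the Pearson correlation of log2 CPM across the 6 libraries ran from -0.61 to 0.86, with a median of 0.07. These are descriptions over 6 points that share library depth and genotype. Rel and Tnfaip3 were the most alike pair (0.86). Nfkbiz was most like Tnfaip3 (0.76), Traf1 most like Nfkbiz (0.67), Bcl3 and Birc3 most like each other (0.71), Nfkb1 most like Bcl3 (0.70), and Nfkbie also most like Bcl3 (0.52). Nfkbia was most like Rel (0.56) and least like Birc3 (-0.61), and Tnip1 had no close partner (0.37 with Birc3).

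The library numbered 2 was the highest of its genotype for 8 of the 10 genes in MUT and for 4 in WT, where library 3 was the highest for another 4. In MUT library 2, 9 of the 10 genes lay above their own mean over the 6 libraries, with a median deviation of 0.49 in log2 CPM, whereas in WT library 1 2 did. These counts were not made over all genes tested, so they say nothing particular about the members. The libraries numbered 2 also held the highest sums of thymocyte, myeloid and cortical epithelium markers in both genotypes, and MUT library 2 the highest sum of B cell markers. The 13 thymocyte markers summed to 298, 1319 and 192 CPM in MUT libraries 1, 2 and 3, and to 405, 866 and 304 CPM in WT libraries 1, 2 and 3. The 14 myeloid markers, 1 of which (Ptprc) is also a thymocyte marker, summed to 1714, 3625 and 2130 CPM in MUT and 2159, 3338 and 2215 CPM in WT. The 6 cortical epithelium markers summed to 496, 651 and 380.2 CPM in MUT libraries 1, 2 and 3, and 332, 539.9 and 389 CPM in WT libraries 1, 2 and 3. Single markers did not all follow these sums. Ccl25 alone held 503 CPM of the cortical sum in MUT library 2. Prss16 was highest in the libraries numbered 1 (42.6 CPM in MUT, 51.8 CPM in WT). Adgre1 was lowest in MUT library 2 (1.725 CPM), and Laptm5 was highest of MUT in library 3, where it held 1147 of the 2130 CPM of the myeloid sum. In MUT library 2, Laptm5, Lyz2 and Ctsd held 1001, 636 and 518 of the 3625 CPM of that sum. Cd3e was higher in WT library 1 (129 CPM) than in WT library 2 (55.2 CPM). No thymocyte or myeloid marker was at 0 in all libraries, and 6 of 13 and 5 of 14 had fitted values above 0. The part of these cells in the values of any of the 10 members was not tested. Immediate-early genes that tissue dissociation induces summed to 6858 to 10573 CPM in MUT and 7900 to 11776 CPM in WT, with 5 of 17 fitted above 0.

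Spread within genotypes differed among the members. The SD of log2 CPM within genotypes had a median of 0.45 over the members, ranging from 0.29 for Bcl3 to 0.77 for Traf1. The median was 0.61 over the 5768 other genes within the members' range of mean CPM and 1.16 over all genes tested. Of the members, 7 lay below that 0.61, and Nfkbiz, Rel and Traf1 lay above it. Bcl3, at a mean of 31.7 CPM, set the lower end of the members' range, and the next member, Traf1, averaged 92.3 CPM. Within this range the other genes were not matched to the members by level. The genes whose pattern was most like the mean log2 CPM of the 10 members were Sars, Emp3, Dus2, Snrnp200 and Slc35f5, with r of 0.987 to 0.994 over 6 libraries. They were the top of 10421 genes with a mean of at least 10 CPM, of which 42 had r above 0.95.

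**Figure D4:**
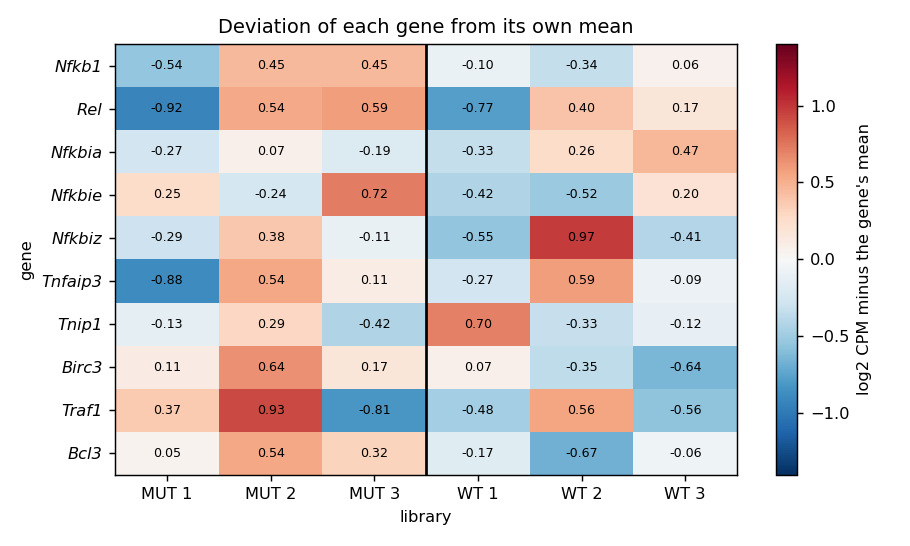
Log2 CPM of each feedback gene in each library minus the mean of that gene over the 6 libraries, MUT libraries on the left and WT libraries on the right of the line. MUT 2 is above the mean for 9 of 10 genes, and Rel and Tnfaip3 are low in MUT 1 (-0.92 and -0.88). The share of all genes tested that lay above their mean in MUT 2 was not counted.

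The rest of the pathway was read from lists drawn from general knowledge. Among 28 other canonical pathway genes (kinases, adaptors, ubiquitin enzymes and the remaining subunit and inhibitors), all were tested, 0 passed in either direction (0 at an unadjusted p under 0.05), 16 had fitted values above 0 and 12 below, and the median log2 fold change was 0.05. Rela measured 126, 44.5 and 64.9 CPM in MUT libraries 1, 2 and 3, and 208, 148 and 77.7 CPM in WT libraries 1, 2 and 3, a log2 fold change of -0.88 (SE 0.50). The genotypes of Rela overlapped, and its value was -1.4 without MUT replicate 1 and -0.52 without WT replicate 1. Chuk, which encodes an IKK kinase subunit, measured 36.8, 41.5 and 50.7 CPM in MUT libraries 1, 2 and 3, and 129, 52.0 and 55.1 CPM in WT libraries 1, 2 and 3. It was the 1 gene of this list with every MUT library below every WT library, near the 3.96% found over all genes, and its log2 fold change of -0.87 (SE 0.52) was -0.32 without WT replicate 1. Ikbkg, the regulatory IKK subunit, was fitted at 1.37 (SE 0.77), and at 0.42 without MUT replicate 1, which held 84.8 CPM against 17.9 and 26.4 CPM in the other MUT libraries and 8.85 to 23.02 CPM in WT. The most abundant of the list in CPM were Tax1bp1, an adaptor of the Tnfaip3 protein, and Birc2, the paralogue of Birc3. Their log2 fold changes were 0.02 (SE 0.35) and 0.01 (SE 0.33).

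Receptors and ligands of the pathway gave 0 calls, and 0 at an unadjusted p under 0.05: of 16 tested, 7 had fitted values above 0 and 9 below, with a median of -0.15. The receptors with the highest CPM, Tnfrsf11a (RANK) and Cd40, averaged 290.4 ± 86.8 and 211 ± 39.5 CPM in MUT, and 329 ± 43.4 and 172 ± 67.8 CPM in WT. Their log2 fold changes were -0.18 (SE 0.32) and 0.29 (SE 0.38). Every MUT library lay above every WT library for 3 of the 16, against 5.39% of all genes tested: Lta, Tnfsf11 and, chosen after its values were seen, Il1r1. Tnfsf11 owed its place among the genes tested in part to its MUT libraries. The lymphotoxin gene Lta measured 22.9, 45.3 and 18.9 CPM in MUT libraries 1, 2 and 3, and 7.18, 11.4 and 16.4 CPM in WT libraries 1, 2 and 3, a log2 fold change of 1.31 (SE 0.79) that became 0.83 without MUT replicate 2. The interleukin-1 receptor gene Il1r1 averaged 141 ± 14.3 CPM in MUT and 109 ± 17.2 CPM in WT (log2 fold change 0.38, SE 0.36). Tnfsf11, the RANK ligand gene, had 18, 82 and 29 counts in MUT and 4, 9 and 10 counts in WT. Il1a, the interleukin-1 alpha gene, had 42, 1111 and 464 counts in MUT and 0, 8 and 274 counts in WT. Both passed the filter on low counts with the help of their MUT libraries, so that their fitted values above 0 follow in part from the filter.

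Other genes that NF-kappaB is known to induce were not called either. Of 29 listed, 28 were tested, 12 had fitted values above 0 and 16 below, with a median of -0.07 (-0.14 to 0.08 with 1 library left out) and 0 calls. Unadjusted p values under 0.05 in edgeR were reached by 2 of the 28, against 3.48% of all genes tested. These were Saa3 and Ier3, both with lower fitted values in MUT. Saa3, a serum amyloid gene, measured 203, 304 and 147 CPM in MUT libraries 1, 2 and 3, and 377, 685 and 258 CPM in WT libraries 1, 2 and 3. The genotypes of Saa3 overlapped, and its log2 fold change of -1.01 (SE 0.41) became -0.55 without WT replicate 2. Ier3, an immediate-early gene, measured 50.5, 32.7 and 22.0 CPM in MUT libraries 1, 2 and 3, and 231, 52.8 and 39.5 CPM in WT libraries 1, 2 and 3. WT library 1 set its log2 fold change of -1.62 (SE 0.68), which was -0.40 without it. The chemokine gene Ccl2 averaged 91.5 ± 25.6 CPM in MUT and 40.6 ± 24.0 CPM in WT (log2 fold change 1.17, SE 0.54, and 1.76 without WT replicate 2), with overlapping genotypes. The most abundant genes of this list in CPM, Ptgs2 and Cflar, had log2 fold changes of -0.28 (SE 0.31) and 0.12 (SE 0.33).

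**Figure D5:**
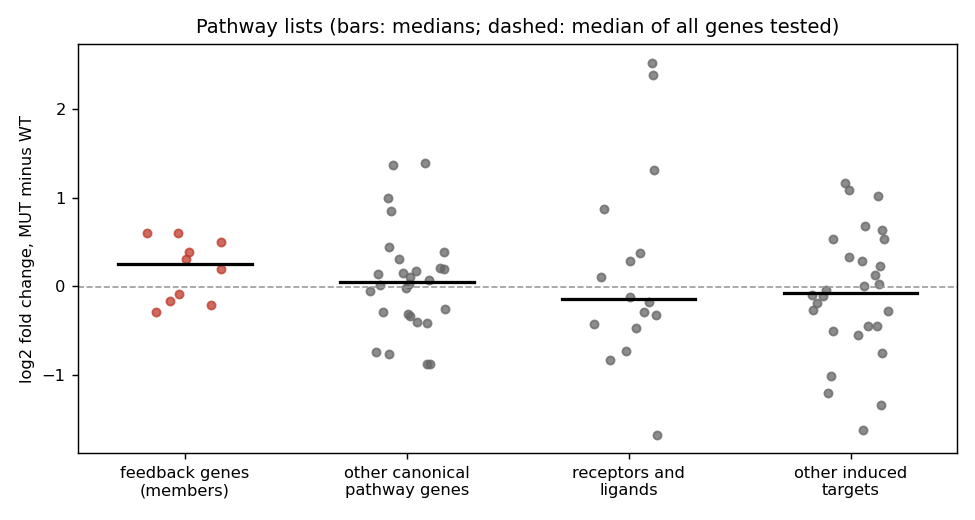
Log2 fold change (MUT minus WT) of each tested gene in 4 lists, with the list medians as bars and the median of all genes tested as a dashed line; horizontal scatter within a list is arbitrary. The 10 feedback genes lie between -0.29 and 0.60, and the other lists spread further on both sides of 0. The values furthest from 0, those of Il1a, Tnfsf11 and Il1rap, have SEs of 1.75, 1.96 and 1.64, against at most 0.61 among the feedback genes.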

How the data were processed

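RNA from mTEC was amplified to cDNA with Nugen Ovation and made into Nextera XT libraries, per the labels' protocols. The authors deposited raw read counts per Ensembl gene ID, 1 column per library, with no normalization. STAR 2.4.2a, DESeq2 1.26.0 and the build GRCm38 are named in the submitters' processing notes with no role stated; how reads were counted, on which annotation and with what strandedness is not given in the sources used here, so reads of overlapping and antisense genes are uncertain. Symbols, positions and exon lengths came from GENCODE M21 (GRCm38), and 42548 of 43432 IDs matched a symbol. Every sample column was used.

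From the counts, MUT was compared with WT by edgeR 4.0.16 in R 4.3.3 (filterByExpr, TMM, robust quasi-likelihood F-tests, genotype as the only term, Benjamini-Hochberg adjustment over the 17172 genes tested, threshold 0.05). SE and 95% intervals are those of the log2 fold change, and CPM uses TMM-scaled sizes of the tested genes. Log2 CPM used a prior count of 2. Alternatives were DESeq2 size factors and upper-quartile factors in edgeR, no filter, a stricter filter (at least 1 CPM in 3 libraries and 50 counts in all), the replicate number as a block, DESeq2 1.42.0, limma-voom (limma 3.58.1), an adjusted p of 0.1 and each library left out in turn. The amplified reads carry no stated molecular identifiers.

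The 10 members and the lists were chosen with earlier results of these data known. In each pathway list the 3 genes with the smallest p and the 2 with the highest mean CPM were named. Ccl21a, whose symbol 2 gene IDs carry, was left out of the mTEC markers. Fibroblast and endothelial, B cell and cortical epithelial marker sums were 104 to 201, 22.0 to 82.8 and 380 to 651 CPM in MUT, and 116 to 210, 24.1 to 49.3 and 332 to 539.9 CPM in WT.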

Additional observations from a re-analysis of the deposited data

How the results depend on the processing

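No member was called under any of the alternatives run, and the lowest adjusted p of a member in them was 0.68, without a filter on low counts. The number of genes called over the whole table was 0 in edgeR, limma-voom, with any 1 library left out and at an adjusted p of 0.1, but 73 without a filter (31 higher, 42 lower) and 116 with DESeq2 (78 higher, 38 lower), neither including a member; the cause was not tested. Of 140 refitted log2 fold changes of the members, 131 kept their sign. With 1 library left out, the values that crossed 0 ranged from -0.08 to 0.55 for Rel, -0.42 to 0.48 for Nfkbiz, -0.44 to 0.21 for Tnfaip3, -0.43 to 0.16 for Tnip1 and -0.04 to 0.84 for Traf1. The median of the members ranged from -0.022 to 0.45 and that of the other canonical pathway genes from -0.059 to 0.16. That of the other induced targets ranged from -0.14 without MUT replicate 2 to 0.08 without MUT replicate 1, and was 0.01 with upper-quartile factors. Without both libraries numbered 2, Nfkbiz was at 0.26 and the median of the other canonical pathway genes at -0.089. No setting other than the libraries left out turned the sign of a member. The median of all genes moved to 0.16 without a filter and to 0.15 with DESeq2, against -0.01 in edgeR, and it stayed within 0.1 of 0 under the other settings run.

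Same-numbered MUT and WT libraries share the ending of their source names, and no label says what that ending stands for. The deviations of same-numbered libraries correlated at 0.059 to 0.13, although 6 of 6 libraries correlated best with their own number in the other genotype. Nfkbie, Birc3 and Bcl3 were higher in the MUT library of each number. The share of all genes tested with this order was not counted, so it says nothing particular about the members. With the replicate number as a block edgeR called 1 gene and 0 members (Nfkbie 0.49, SE 0.34, unadjusted p 0.177; Birc3 0.61, SE 0.29, unadjusted p 0.0564), and the median of the other canonical pathway genes was 0.16. With 3 libraries a genotype, the upper ends of the members' intervals run from 1.297-fold (Nfkbia) to 3.78-fold (Bcl3). Their lower ends run from 0.447-fold (Nfkbiz) to 0.935-fold (Birc3), with Nfkbia at 0.513-fold.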
